A study of Homo sapiens with 6 samples.

Results

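The feedback genes of transforming growth factor beta (TGF-β) and bone morphogenetic protein (BMP) signaling were examined in U251 cells exposed to sevoflurane (Sev). The group held 10 genes of the 61496 features in the count table, namely SMAD6, SMAD7, NOG, BAMBI, SKI, SKIL, SMURF1, SMURF2, TGIF1 and PMEPA1. They were chosen by the fold changes of SMAD7 and NOG, which rose strongly between the same libraries that are described here. Their values are therefore given as a description, with no test, and their number of calls supports nothing. SMAD7 rose from a mean of 6.30 to 59.1 CPM, a count scaled to the same total in every library, and NOG rose from 4.69 to 33.2 CPM. The intracellular SMAD6 and the ubiquitin ligase SMURF1 rose by a factor of more than 2 in CPM, BAMBI, SMURF2, SKIL and SKI rose by less, and TGIF1 and PMEPA1 overlapped between the groups.

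TGF-β and BMP ligands bind pairs of receptor kinases on the cell surface, and the receptors phosphorylate SMAD proteins, which enter the nucleus with SMAD4 and switch genes on or off. TGF-β and activin use SMAD2 and SMAD3, and the BMPs use SMAD1, SMAD5 and SMAD9. Both branches switch on their own inhibitors, which act outside the cell, at the receptor, on the SMAD proteins and in the nucleus, and TGF-β signaling is well known for its part in the growth and invasion of glioma.

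U251 is an established human glioma cell line, sequenced here as total RNA. The data were 3 libraries of untreated control cells and 3 libraries of cells exposed to Sev, an inhaled anesthetic, as a gas for 2 h, all grown in DMEM with 10% FBS under 5% CO2. The protocol listed Sev at 1.7%, at 3.4% and at 5.1% without assigning a concentration to a library, so the labels do not give the concentration of each Sev library. A legend in the study names the highest of these for the cells it compared by sequencing. Nothing in the labels said that the replicates were separate cultures, so the spread between them may be technical. Library totals ran from 38624292 to 46318311 counts. The first principal component held 69% of the variance and separated the groups, and the second held 10% and set Sev 2 and Sev 3 apart, at 61.5 and -52.4, with Sev 1 at -9.25. The 9 astroglial markers summed to 1264 to 1479 FPKM in the control libraries and 1270 to 1384 FPKM in the Sev libraries, with VIM, NES, SOX2 and GFAP present and AQP4 near 0. VIM made up most of that sum, and within the list S100B and SOX2 fell and CD44 rose, with log2 fold changes of -1.10, -0.72 and 0.97 (adjusted p = 0.00215, 0.000367 and 0.000174 by edgeR). The leukocyte markers summed to 1.48 to 2.50 FPKM in the control libraries and 2.73 to 3.05 FPKM with Sev, with AIF1 at 0 in all 6 libraries. Of these, CSF1R rose by a log2 fold change of 0.72 (adjusted p = 0.0201 by edgeR), and ITGAM rose from 2, 3 and 0 counts to 69, 33 and 130 counts (adjusted p = 0.00117). Summed endothelial markers were 5.49 to 5.58 and 6.54 to 7.79 FPKM, and epithelial markers 6.44 to 6.89 and 7.54 to 8.66 FPKM. Neuron markers summed to 3.95 to 4.72 and 3.69 to 3.88 FPKM, and oligodendrocyte markers to 0.487 to 0.806 and 0.577 to 0.619 FPKM. Single genes of these lists moved too: KDR, PECAM1, CLDN5, SYT1, MBP and KRT18 were called higher and GAD1 lower. These sums lay far below the astroglial sums, and their part in the results was not tested. In these bulk libraries, fewer cells that express a gene and less RNA of it per cell cannot be told apart.

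Promoter windows are shown first for SMAD7 and SMAD6, close relatives that both rose. RefSeq on GRCh38.p14 gave windows from 250 bases before to 50 bases after a transcription start for 8 of the 10 members, 19 windows in all, and none for NOG and SKI. The lines hold the 250 bases before the start, 5′ to 3′ on the strand of the gene. They come from chr18:48950966-48951215 on the minus strand for SMAD7 and chr15:66701986-66702235 on the plus strand for SMAD6. The capitals mark GTCTAGAC, the palindromic site that SMAD proteins are known to bind. The SMAD7 line has no capitals because none of the motifs searched was found in that window.
SMAD7: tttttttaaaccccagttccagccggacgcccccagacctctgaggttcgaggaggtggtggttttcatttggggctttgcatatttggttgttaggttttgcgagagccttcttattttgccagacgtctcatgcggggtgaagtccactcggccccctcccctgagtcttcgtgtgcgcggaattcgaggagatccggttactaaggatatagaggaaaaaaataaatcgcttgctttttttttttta
SMAD6: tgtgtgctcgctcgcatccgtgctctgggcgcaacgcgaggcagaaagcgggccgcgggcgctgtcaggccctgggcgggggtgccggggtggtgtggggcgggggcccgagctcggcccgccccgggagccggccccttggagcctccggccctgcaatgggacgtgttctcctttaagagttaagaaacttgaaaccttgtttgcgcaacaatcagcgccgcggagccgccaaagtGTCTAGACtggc
The site in SMAD6 began 12 bases before the start. Among all 35116 RefSeq windows of this length, 0.202% held GTCTAGAC, and among the 8 members with a window SMAD6 was the 1 that held it. SMAD7 had 2 further windows, and neither held any of the motifs searched. All its windows lie inside the gene as GENCODE 29 draws it, with its start at chr18:48952052. The sequence at and before that start was not searched, so no lack of a SMAD site in SMAD7 can be read from these windows.

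The promoters of SKIL and BAMBI are shown for a pair of the other motifs. That of SKIL lies at chr3:170357465-170357714 and that of BAMBI at chr10:28677271-28677520, both on the plus strand. The capitals mark TGACGTCA, the full cyclic AMP response element, in SKIL, and GGCGCC, a GC-rich site of the BMP SMAD proteins, in BAMBI.
SKIL: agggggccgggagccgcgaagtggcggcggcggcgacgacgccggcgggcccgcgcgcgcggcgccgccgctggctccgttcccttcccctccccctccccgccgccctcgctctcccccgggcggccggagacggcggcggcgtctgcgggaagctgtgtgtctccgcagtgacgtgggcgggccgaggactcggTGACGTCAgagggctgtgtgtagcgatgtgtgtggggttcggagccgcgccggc
BAMBI: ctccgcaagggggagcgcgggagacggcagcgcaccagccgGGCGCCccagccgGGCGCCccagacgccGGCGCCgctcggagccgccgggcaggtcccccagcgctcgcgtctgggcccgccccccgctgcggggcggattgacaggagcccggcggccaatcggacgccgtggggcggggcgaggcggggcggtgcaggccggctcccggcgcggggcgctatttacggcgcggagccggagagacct
TGACGTCA began 54 bases before the start of SKIL and 4 bases before a start of PMEPA1, and 1.85% of all windows held it. BAMBI held GGCGCC 3 times, at 209, 196 and 181 bases before the start, SKIL and PMEPA1 held it too, and so did 19.2% of all windows. The core CAGACA, which SMAD3 and SMAD4 bind, stood in windows of SMURF2, TGIF1 and PMEPA1 and in 16.9% of all windows. The AP-1 site TGANTCA was found in TGIF1 (7.71% of all windows), and TGACG, which the longer element contains, was found in the same 2 members (24.6% of all windows). The E-box CACGTG (7.26% of all windows) and the composite site TGATGNAA of the ATF and CEBP factors (3.62%) matched in none of the 8 members with a window. Both strands were read, and members with more windows had more places for a match. In the first window listed for each gene, the 250 bases before the start were 48% G and C in SMAD7, 57.6% in TGIF1, 63.2% in PMEPA1, 68% in SMAD6, 78.4% in SKIL, 81.2% in BAMBI and SMURF1 and 82% in SMURF2, against a median of 58% over 27305 genes.

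The members were then described by role, as CPM scaled by the trimmed mean of M values (TMM), with log2 fold changes from edgeR on the deposited counts. Among 27514 features tested, 22.2% were called higher and 21.5% lower with Sev at an adjusted p under 0.05, and 11.4% were called higher and 12% lower by a fold threshold taken from the study, where the log2 fold change exceeds 1 in size and the unadjusted p is under 0.05. In the same fit 8 of the 10 members were called higher by the adjusted p and 4 by the fold threshold, and the latter count was 3 with library size only and in the fits on FPKM and 5 without Sev 3. Nothing is read from these counts, since the contrast chose the members. All 10 members passed the filter on low counts and all had a log2 fold change above 0, from 0.24 in PMEPA1 to 3.23 in SMAD7, with a median of 0.89. The median over all tested features was -0.01. In 8 members every Sev library lay above every control library, as it did for 28.3% of all tested features.

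**Figure D1:**
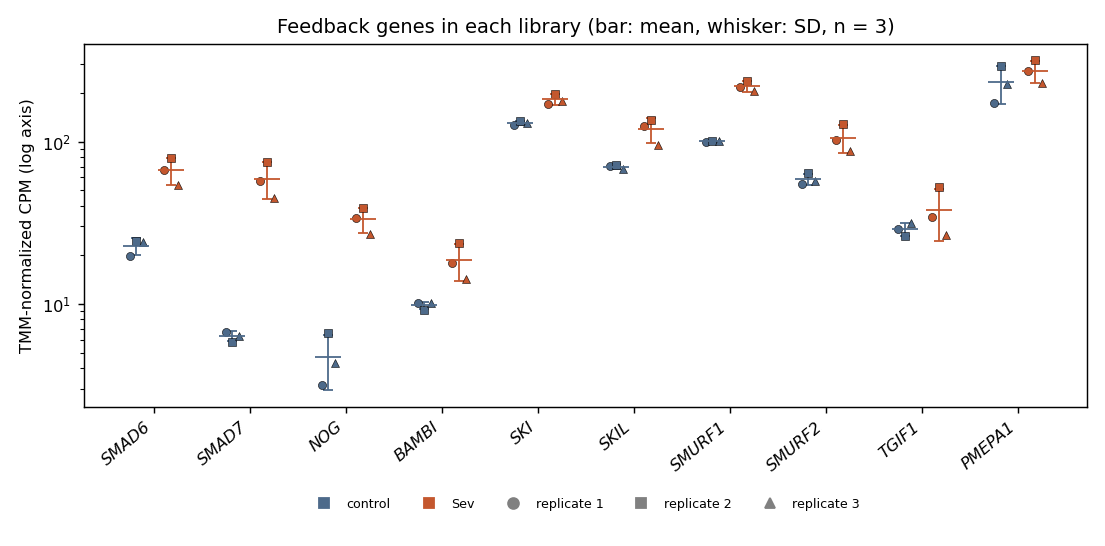
TMM-scaled CPM of each of the 10 feedback genes in the 6 libraries, on a log axis; symbols are single libraries, horizontal bars are group means and whiskers are SD (n = 3). The Sev libraries of SMAD7 lie at 44.9 to 75.0 CPM, all above the control libraries at 5.85 to 6.73, and in TGIF1 and PMEPA1 the groups overlap.

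SMAD7 and SMAD6 are the inhibitory SMAD proteins. SMAD7 (ENSG00000101665, chr18:48919853-48952052 on GRCh38, minus strand) binds active type I receptors of both branches and brings ubiquitin ligases to them. Its counts were 285, 232 and 308 in the control libraries and 2164, 2824 and 1780 in the Sev libraries, or 6.73, 5.85 and 6.34 CPM and 57.4, 75.0 and 44.9 CPM. The groups were far apart, with the Sev libraries more spread out than the control libraries. The mean went from 6.30 ± 0.44 to 59.1 ± 15.2 CPM (SD, n = 3 each), a ratio of 9.38 and a log2 fold change of 3.23 with a standard error (SE) of 0.19. SMAD6 (ENSG00000137834, chr15:66702228-66782848, plus strand) acts mainly on the BMP branch. It had 829, 960 and 1173 counts in the control libraries and 2507, 2969 and 2125 with Sev, or 19.6, 24.2 and 24.1 CPM and 66.5, 78.9 and 53.6 CPM. Its log2 fold change was 1.55 (SE 0.16), from 22.6 ± 2.65 to 66.3 ± 12.7 CPM (SD, n = 3 each), with no overlap.

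The FPKM ratio of the pair turned over between the groups. In FPKM, which takes account of gene length, SMAD7 was at 0.582, 0.407 and 0.444 of SMAD6 in the control libraries and at 1.47, 1.62 and 1.42 of it in the Sev libraries. By FPKM, SMAD6 was thus the higher of the pair in each control library, and SMAD7 was in each Sev library. In CPM, which is not scaled by gene length, SMAD6 was the higher in every library. With Sev it stood at 66.5, 78.9 and 53.6 CPM against 57.4, 75.0 and 44.9 CPM for SMAD7. The turnover thus rests on the gene lengths used for FPKM. The mean FPKM ratio was 0.478 ± 0.092 in the control libraries and 1.502 ± 0.101 with Sev (SD, n = 3 each), a description, as SMAD7 was picked for its rise. AC013564.1, annotated within an intron of SMAD6 on the same strand, had 42, 41 and 71 counts in the control libraries and 128, 152 and 105 with Sev. It moved the same way as its host, and its reads cannot be told apart from unspliced RNA of SMAD6.

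NOG encodes noggin, the secreted protein that binds BMP ligands and keeps them from their receptors. The gene (ENSG00000183691) lies at chr17:56593699-56595590 on the plus strand. Its counts were 134, 262 and 209 in the control libraries and 1278, 1458 and 1064 with Sev, or 3.16, 6.60 and 4.30 CPM and 33.9, 38.8 and 26.8 CPM. Here the control libraries differed among themselves by a factor of about 2, more than for any other member in relation to its mean, and still stood far under the Sev libraries. The mean went from 4.69 ± 1.75 to 33.2 ± 5.998 CPM (SD, n = 3 each), a ratio of 7.07 and a log2 fold change of 2.82 (SE 0.27). BAMBI (ENSG00000095739, chr10:28677342-28682939, plus strand) is a decoy receptor that has no kinase domain. BAMBI had 427, 365 and 489 counts in the control libraries and 670, 896 and 567 with Sev, or 10.1, 9.20 and 10.1 CPM and 17.8, 23.8 and 14.3 CPM. The groups did not overlap, although Sev 3 stood closer to the control libraries than to Sev 2. The log2 fold change was 0.93 (SE 0.19).

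SMURF1 and SMURF2 are the ubiquitin ligases that mark SMAD proteins and receptors for degradation, in part through SMAD7. SMURF1 (ENSG00000198742, chr7:99027438-99144100, minus strand) had 4228, 3970 and 4930 counts in the control libraries and 8183, 8876 and 8079 with Sev. Its control libraries were the most alike of any member, at 99.8, 100.1 and 101.4 CPM, and its Sev libraries stood at 216.9, 235.9 and 203.6 CPM. The log2 fold change was 1.12 (SE 0.08), with the groups wide apart. SMURF1 shares 23394 bases with TRRAP on the opposite strand, which had 19743, 18481 and 22871 counts in the control libraries and 17487, 19971 and 17510 with Sev. The libraries were made with strand-specific adapters, but the strand setting of the counting was not given in the sources used here. Unless the strand was used, reads from the shared stretch cannot be told apart, and the counts of TRRAP overlapped between the groups. SMURF2 (ENSG00000108854, chr17:64542295-64662068, minus strand) had 2327, 2524 and 2782 counts in the control libraries and 3838, 4820 and 3476 with Sev, or 54.9, 63.6 and 57.2 CPM and 101.7, 128.1 and 87.6 CPM. Its log2 fold change was 0.85 (SE 0.14), with no overlap. In FPKM, SMURF2 was at 0.507 ± 0.040 of SMURF1 in the control libraries and 0.418 ± 0.050 with Sev (SD, n = 3 each), and every Sev value lay below every control value.

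SKI, SKIL and TGIF1 are repressors in the nucleus that bind SMAD proteins at their target genes. SKIL (ENSG00000136603, chr3:170357678-170396835, plus strand), which encodes SnoN, had 2990, 2854 and 3297 counts in the control libraries and 4730, 5130 and 3800 with Sev. In CPM it stood at 70.6, 71.9 and 67.8 against 125.4, 136.3 and 95.8, a log2 fold change of 0.77 (SE 0.13). The Sev libraries were well above the control libraries, with Sev 3 nearest to them. SKI (ENSG00000157933, chr1:2228695-2310119, plus strand) had 5351, 5297 and 6312 counts in the control libraries and 6434, 7388 and 7055 with Sev, or 126.3, 133.5 and 129.8 CPM and 170.6, 196.4 and 177.8 CPM. The groups of SKI did not overlap either, and its log2 fold change was 0.48 (SE 0.08). TGIF1 (ENSG00000177426, chr18:3411608-3459978, plus strand) had 1218, 1035 and 1534 counts in the control libraries and 1287, 1975 and 1046 with Sev, or 28.8, 26.1 and 31.6 CPM and 34.1, 52.5 and 26.4 CPM. Sev 2 was well above the control range, Sev 1 was just above it, and Sev 3 lay inside it. The log2 fold change of TGIF1 was 0.39 (SE 0.23) and was not called. With 1 library left out it ran from 0.07 to 0.59, and it was called only without Sev 3, at 0.59.

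PMEPA1 (ENSG00000124225, chr20:57648392-57711536, minus strand) encodes a membrane protein that holds SMAD2 and SMAD3 away from the receptor. It had the highest level of the members and the smallest change. Its counts were 7334, 11656 and 11055 in the control libraries and 10255, 11888 and 9161 with Sev, or 173.1, 293.8 and 227.4 CPM and 271.9, 316.0 and 230.9 CPM. The control range covered most of the Sev range, and the log2 fold change of 0.24 (SE 0.19) was not called. The antisense gene NKILA shares 1354 bases with PMEPA1. NKILA had 159, 228 and 220 counts in the control libraries and 359, 464 and 271 with Sev, so each Sev value of the antisense gene was above its control values. The limit on strand given for SMURF1 holds here too, and for SMURF2, which shares 167 bases with CEP95.

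**Figure D2:**
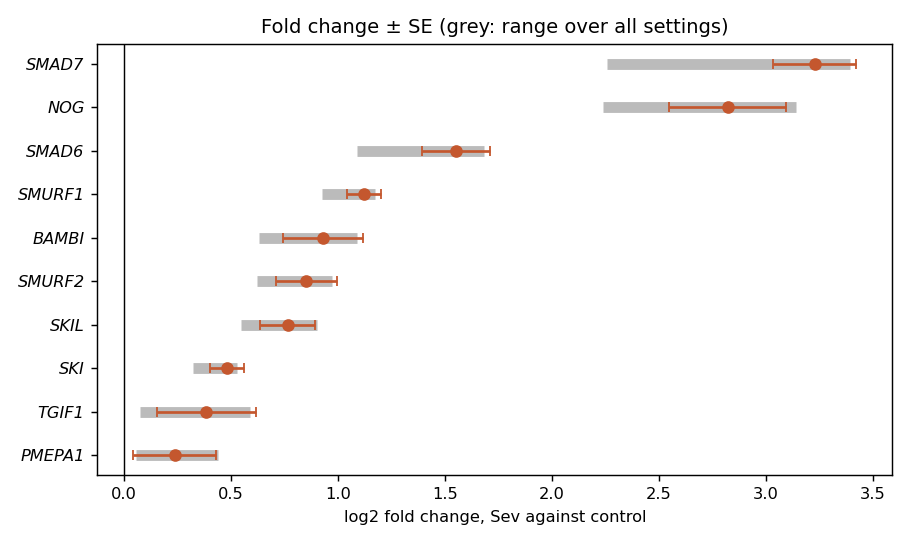
Log2 fold change of the 10 members, Sev against control, with points for the edgeR estimate, whiskers for ± 1 SE and grey bands for the range over the settings tried. The members run from PMEPA1 at 0.24 to SMAD7 at 3.23, and no grey band reaches 0.

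The 3 Sev libraries kept nearly the same order in every member. Sev 2 was the highest Sev library in 10 of 10 members, and Sev 3 was the lowest in 9 and Sev 1 in 1. Across all tested features Sev 2 was the highest in 37.5% and Sev 3 the lowest in 35.5%, and across the features called higher these shares were 38.4% and 36.7%. The 10 members share these 3 libraries, so this is 1 pattern of libraries and not 10 separate ones, and Sev 2 and Sev 3 are also the libraries that the second principal component set apart. Among the control libraries control 2 was the highest in 6 members and control 1 the lowest in 6.

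The order of the FPKM levels within the group changed, for SMAD7 and NOG and for other members too. In the control libraries the mean FPKM ran from PMEPA1 at 34.2 through SKI at 16.9, SMURF1 at 13.6, SKIL at 7.66, SMURF2 at 6.91, BAMBI at 3.89, TGIF1 at 2.97, SMAD6 at 2.24 and NOG at 2.09 to SMAD7 at 1.058. Of neighbours in this order, SMAD6 and NOG alone overlapped in their ranges. With Sev the order was PMEPA1 at 36.5, SMURF1 at 26.9, SKI at 21.3, NOG at 13.4, SKIL at 11.8, SMURF2 at 11.3, SMAD7 at 8.98, BAMBI at 6.66, SMAD6 at 5.94 and TGIF1 at 3.49. From NOG down to SMAD6 each range overlapped that of the next gene, so neighbours among these 6 genes did not differ beyond their spread across libraries. Within each Sev library, though, NOG was above SKIL, SMURF2 above SMAD7, SMAD7 above BAMBI and BAMBI above SMAD6, while SKIL and SMURF2 changed places in Sev 2. SMAD7 moved from rank 10 to rank 7, NOG from rank 9 to rank 4 and TGIF1 from rank 7 to rank 10. SKI and SMURF1 changed places, with ranges apart in each group. Ranks across genes depend on the gene lengths used for FPKM. By mean CPM with Sev, SMAD7 (59.1) stayed below SMAD6 (66.3), and NOG (33.2) lay below TGIF1 (37.7).

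**Figure D3:**
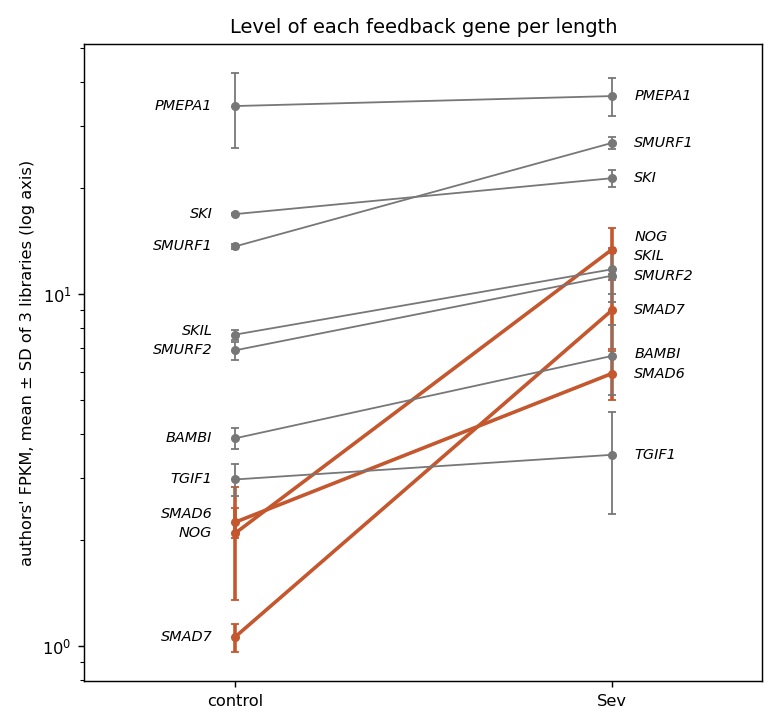
Mean deposited FPKM of the 10 members in the control and the Sev libraries on a log axis, with whiskers for SD (n = 3), lines joining the groups and SMAD7, NOG and SMAD6 in color. SMAD7 and NOG start at the low end, at 1.058 and 2.09 FPKM, and reach 8.98 and 13.4 FPKM with Sev.

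The genes with the profile most like that of SMAD7 or NOG were looked up among 20885 tested genes with a symbol. The measure was the Euclidean distance over the 6 libraries between log2 CPM values, each with a prior count of 2 and taken relative to the control mean of its gene. Nearest to SMAD7 were NIBAN3 at a distance of 0.294, THEG at 0.415 and ECEL1 at 0.435. NIBAN3 had 5, 4 and 5 counts in the control libraries and 42, 65 and 42 with Sev, while THEG and ECEL1 had 0 counts in every control library and 12 to 20 and 13 to 25 with Sev. The prior count sets the distance of genes at 0, so the likeness of THEG and ECEL1 to SMAD7 is a matter of that scale. Nearest to NOG were NKX1-2 at 0.442, HNRNPA1P71 at 0.477 and ASB15-AS1 at 0.537. NKX1-2 had 12, 25 and 17 counts in the control libraries and 118, 167 and 81 with Sev, and the other two had at most 5 counts in any control library. All 6 neighbours thus rested on far fewer counts than SMAD7 and NOG, whose distance from each other was 1.07.

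The remaining genes of the pathway were taken from 9 lists by role, 117 genes in all, of which 103 passed the filter on low counts. The lists were chosen with earlier results of these data known, so here and below their shares beside the background are a description. By the quasi-likelihood test of edgeR with Benjamini-Hochberg adjustment over all features tested, 41 of the 103 rose with Sev (39.8%), 16 fell (15.5%) and 46 did not pass. The number that fell was 5 without control 1 or control 3, 9 without control 2, 6 without Sev 1, 7 without Sev 3 and 6 with the replicate number as a block, against 15 without Sev 2. The background was 22.2% higher and 21.5% lower, and the median log2 fold change was 0.24 against -0.01 over all features tested. With library size alone in place of TMM, 31 rose and 22 fell, against 4660 higher and 7505 lower over all features, whose median log2 fold change then shifted to -0.15. This scaling moves all features alike.

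**Figure D4:**
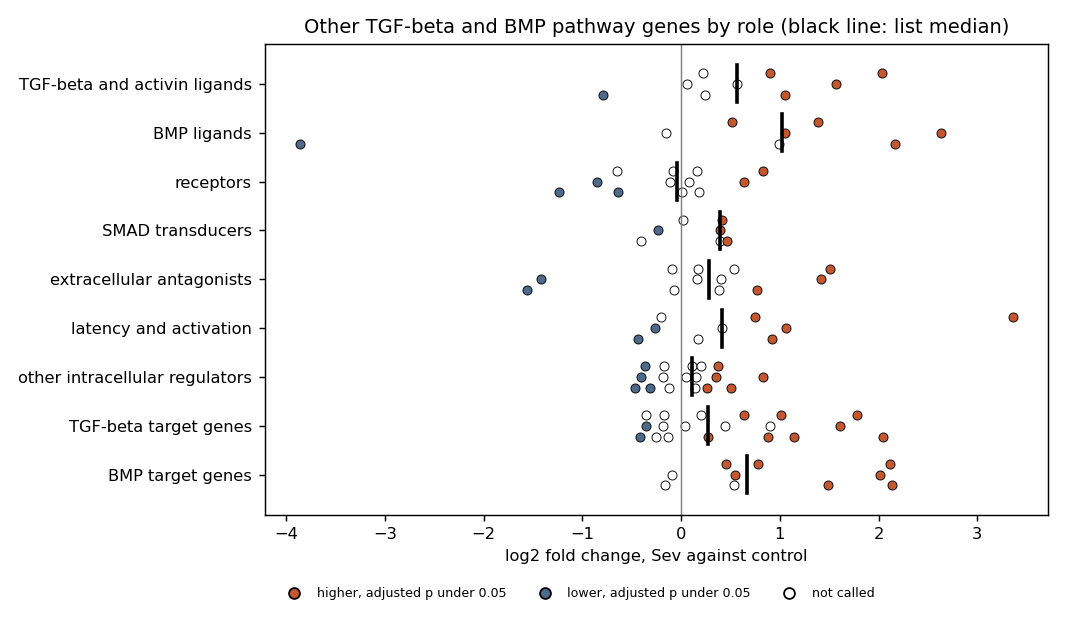
Log2 fold change, Sev against control, of the 103 tested pathway genes by list. Each point is a gene, filled where it passed an adjusted p of 0.05, and black lines are list medians, from -0.04 in the receptors to 1.02 in the BMP ligands.

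The BMP ligands include several that noggin binds, and they moved in both directions. Of 8 tested, 5 rose (62.5%), 1 fell (12.5%) and 2 did not pass, with a median log2 fold change of 1.02, against 22.2% and 21.5% over all features tested. With library size only or the replicate block 4 rose, and with at least 10 counts in every library GDF7, the 1 that fell, was not tested. GDF6 went from 9.77, 11.0 and 13.2 CPM in the control libraries to 51.5, 53.6 and 47.3 CPM with Sev, a log2 fold change of 2.16 (SE 0.13, adjusted p = 6.67e-05 by edgeR). BMP6 rose from 4.71 ± 0.15 to 12.3 ± 2.88 CPM (SD, n = 3 each, adjusted p = 0.000991 by edgeR). GDF7 was the ligand that fell, from 153, 144 and 116 counts to 8, 13 and 4 counts, or 3.21 to 0.219 CPM on average (adjusted p = 0.000345 by edgeR). BMP4, named after its values were seen, stood at 0.873, 1.39 and 1.23 CPM in the control libraries and 5.51, 11.5 and 4.66 CPM with Sev, a log2 fold change of 2.63 (SE 0.38, adjusted p = 0.00139 by edgeR). Noggin and GDF6 thus rose together, with the FPKM of NOG at 0.814 ± 0.313 of that of GDF6 in the control libraries and 1.27 ± 0.15 with Sev (SD, n = 3 each), and these ratios overlapped. BMP10 and GDF2 were at 0 counts in all 6 libraries.

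Of the 9 TGF-β and activin ligands tested, 4 rose (44.4%) and 1 fell (11.1%), against 22.2% and 21.5% over all features tested, and 3 rose with library size only or the replicate block. TGFB2, the isoform first described as a glioblastoma product, went from 25.7, 31.7 and 24.6 CPM to 73.1, 111.1 and 58.7 CPM (log2 fold change 1.57, SE 0.23, adjusted p = 0.00144 by edgeR). Its Sev libraries ranked in the order seen in most members. TGFB1 had a log2 fold change of 0.22 (SE 0.10) and did not pass (adjusted p = 0.101 by edgeR). INHBA, a subunit of activin, rose from 1.45 to 2.70 CPM, a call that was lost in 4 of 13 alternatives. GDF11, a ligand of the activin branch, fell from 37.2 ± 5.33 to 21.4 ± 0.19 CPM (SD, n = 3 each, adjusted p = 0.00151 by edgeR).

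Of 12 receptors tested, 2 rose (16.7%), 3 fell (25%) and 7 did not pass, with a median log2 fold change of -0.04. These shares were near the 22.2% and 21.5% of all features tested. TGFBR2, the type II receptor of TGF-β, rose from 136.0 ± 4.81 to 241.1 ± 40.7 CPM (SD, n = 3 each, adjusted p = 0.00156 by edgeR), and BMPR1A, a type I receptor of the BMPs, rose from 72.3 to 112.5 CPM (adjusted p = 0.00483). The type II activin receptors ACVR2A and ACVR2B fell, from 32.9 to 13.98 CPM and from 56.2 to 31.1 CPM (adjusted p = 0.000548 and 0.000997 by edgeR). TGFBR1 was spread widely with Sev, at 75.8, 39.0 and 40.1 CPM against 54.3, 54.0 and 56.3 CPM in the control libraries. It did not pass with all libraries, turned to a log2 fold change of 0.08 or 0.07 without Sev 2 or Sev 3, and was called lower, at -0.47, without Sev 1. BMPR2 stood at 156.0 ± 1.55 and 156.7 ± 15.3 CPM (SD, n = 3 each), with overlap between the groups.

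Of the 7 genes for SMAD proteins that carry the signal and their anchor, 3 rose, 1 fell and 3 did not pass, and none had a log2 fold change over 0.46 in size. With library size only 1 rose and 2 fell, and with the replicate block none fell, against 22.2% higher and 21.5% lower over all features tested. SMAD3 rose from 245.3, 245.3 and 244.8 CPM to 321.0, 335.1 and 322.5 CPM, a log2 fold change of 0.41 (SE 0.07, adjusted p = 0.00229 by edgeR). SMAD4, the partner shared by both branches, and SMAD5 also rose, by log2 fold changes of 0.46 and 0.39 (adjusted p = 0.022 and 0.0102 by edgeR), and SMAD2 fell by 0.23 on the log2 scale (adjusted p = 0.0335). The calls of SMAD2, SMAD4 and SMAD5 were lost in 8, 6 and 4 of 15 alternatives. SMAD1 had a log2 fold change of 0.39 and did not pass (adjusted p = 0.0811 by edgeR). With 1 library left out it ran from 0.21 to 0.54, and it was called only without Sev 2, at 0.54.

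Of 12 secreted antagonists tested besides NOG, 3 rose (25%), 2 fell (16.7%) and 7 did not pass, shares near the 22.2% and 21.5% of all features tested. FST, which encodes follistatin, the inhibitor of activin, rose from 1.53 to 4.09 CPM (log2 fold change 1.42, SE 0.25, adjusted p = 0.00344 by edgeR). The others named by the rule, CHRDL2, LEFTY1 and DAND5, were low, at 0.101 to 1.03 CPM in single libraries, and the calls of LEFTY1 and DAND5 were lost in 7 and 8 of 12 alternatives. Of 17 other intracellular regulators, 5 rose (29.4%) and 4 fell (23.5%), also near the background. With library size only 2 rose and 6 fell, with the replicate block 2 rose and 1 fell, and with no count filter 3 rose and 1 fell. NEDD4L, a ubiquitin ligase related to the SMURF proteins, rose from 38.0 to 67.8 CPM (adjusted p = 0.00119 by edgeR). RLIM, which has been tied to the breakdown of SMURF2 and of nuclear cofactors, rose from 255.8 to 363.2 CPM (adjusted p = 0.00145 by edgeR). RNF111, the ligase Arkadia that degrades SMAD7, SKI and SKIL proteins, fell from 60.7 ± 1.402 to 43.8 ± 1.70 CPM (SD, n = 3 each, adjusted p = 0.00244 by edgeR), and LDLRAD4, a relative of PMEPA1, fell by 0.31 on the log2 scale, a call lost in 8 of 15 alternatives. Of 9 genes of latency and activation, 4 rose (44.4%) and 2 fell (22.2%, the share of the background being 21.5%), and with the replicate block none of them or of the antagonists fell. THBS1, which encodes thrombospondin and can release TGF-β from its latent form, rose from 1209 ± 163 to 2517 ± 135 CPM (SD, n = 3 each, adjusted p = 0.000436 by edgeR). FURIN, the protease that cleaves the TGF-β precursor, rose with a log2 fold change of 0.75 (adjusted p = 0.00156 by edgeR), while the latent binding proteins LTBP4 and LTBP1 fell by 0.44 and 0.27 on the log2 scale, calls that were each lost in 5 of 15 alternatives. ITGB6, a subunit of an integrin that activates TGF-β and named after its values were seen, had 5, 3 and 4 counts in the control libraries and 27, 61 and 23 with Sev, the largest rise of the 103 genes on the log2 scale, on very few counts.

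Of 10 target genes of the BMP branch tested, 7 rose (70%) and 3 did not pass, with a median log2 fold change of 0.67, against 22.2% higher and 21.5% lower over all features tested. With library size only 6 rose. ID1, the best known BMP target and an inhibitor of helix-loop-helix factors, went from 109.6, 98.8 and 111.5 CPM to 449.9, 578.1 and 377.2 CPM (log2 fold change 2.13, SE 0.16, adjusted p = 0.000112 by edgeR). Its relatives ID2 and ID4 rose from 33.6 to 135.3 CPM and from 21.6 to 93.2 CPM (adjusted p = 0.000168 and 0.000184 by edgeR). ID3 was the least changed of the family, from 184.3 to 251.9 CPM (adjusted p = 0.00849 by edgeR), a call lost with library size alone and in the 3 fits on FPKM. ID1, ID2 and ID4 were highest in Sev 2 and lowest in Sev 3 among the Sev libraries, as in most members, whereas ID3 was lowest in Sev 2, at 234.3 CPM against 261.2 in Sev 1 and 260.2 in Sev 3.

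Of 19 TGF-β target genes tested, 8 rose (42.1%), 2 fell (10.5%) and 9 did not pass, with a median log2 fold change of 0.27, against 22.2% and 21.5% over all features tested. With library size only 6 rose and 4 fell, and with the replicate block 8 rose and none fell. CCN2, which encodes connective tissue growth factor, rose from 662.4, 882.6 and 763.2 CPM to 2731, 2829 and 2389 CPM (log2 fold change 1.78, SE 0.13, adjusted p = 0.000112 by edgeR), and PTHLH from 43.3 ± 6.74 to 132.2 ± 17.7 CPM (SD, n = 3 each, adjusted p = 0.00021). The matrix genes COL1A2 and FN1 fell by 0.42 and 0.36 on the log2 scale (adjusted p = 0.0358 and 0.0378 by edgeR), calls lost in 5 and 6 of 15 alternatives.

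**Figure D5:**
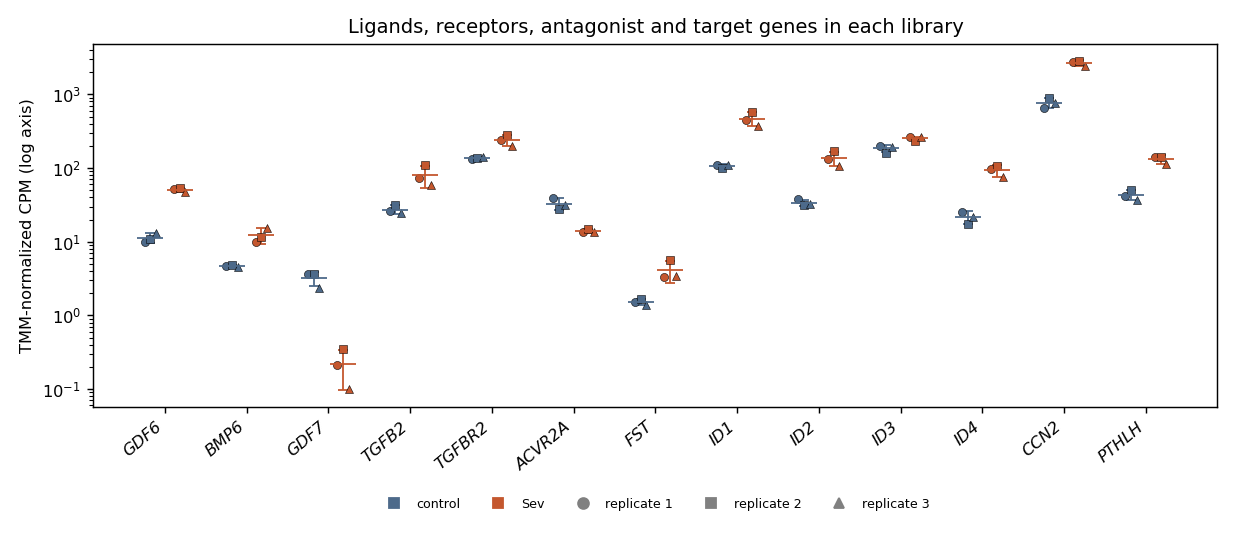
TMM-scaled CPM of 13 named pathway genes in the 6 libraries on a log axis, with symbols for single libraries, horizontal bars for group means and whiskers for SD (n = 3). GDF6, ID1, ID2, ID4 and CCN2 lie higher in all Sev libraries than in all control libraries, and GDF7 and ACVR2A lie lower.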

How the data were processed

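U251 RNA was measured in 6 libraries, 3 control and 3 Sev, grouped by their labels. The authors deposited raw counts per gene and FPKM values per gene, which scale counts by library and gene length. Per the labels' processing notes, bcl2fastq 2.19 and featureCounts were used with hg18, and the count settings, strand included, are not given in the sources used here. For 93.4% of 13668 features with at least 100 counts in every library, FPKM per count was 1 factor per library within 1%. Symbols were joined to 60295 Ensembl identifiers. The identifiers are more recent than hg18, so positions come from GENCODE 29 on GRCh38 (58457 identifiers) and promoters from RefSeq on GRCh38.p14.

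Counts were filtered (filterByExpr), scaled by TMM and compared between the groups by the quasi-likelihood test (glmQLFit, glmQLFTest) of edgeR 4.0.16 in R 4.3.3, which was checked on simulated data. Adjusted p-values are Benjamini-Hochberg over all 27514 features tested, with a limit of 0.05. The SE is the log2 fold change over the root of the F statistic. An exact permutation test of 3 against 3 cannot go under 0.1. Alternatives changed the scaling (DESeq2 size factors, or library size only), the test (DESeq2 1.42.0, Wald), the filter (none, or 10 counts as a minimum in each library) or the libraries (each left out in turn), or blocked on the replicate number. Limma 3.58.1 was also run on log2(FPKM + 1), with and without a minimum FPKM of 0.5 in 3 libraries, and on log2(FPKM + 0.1) with it.

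The members and lists were chosen with earlier results of these data known. Named were the members, SMAD1 to SMAD5, TGFBR1, TGFBR2, BMPR1A, BMPR2, TGFB1, TGFB2, ID1 to ID4, up to 2 called genes per direction and list with the smallest p, and the 3 nearest profiles to SMAD7 and to NOG. The result for 1 listed gene is not reported here. Replicate pairs differed beyond counting noise in 49% to 66.5% of 15608 genes, so none was 1 library deposited in duplicate.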

Additional observations from a re-analysis of the deposited data

How the results depend on the processing

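The 8 members called higher by the adjusted p kept their direction and that call under all 15 alternatives, with log2 fold changes of 2.26 to 3.39 for SMAD7, 2.24 to 3.14 for NOG and 1.09 to 1.68 for SMAD6. This describes the fits only and supports nothing about the members, since the same contrast chose them. TGIF1 ran from 0.07 to 0.59 and was called only without Sev 3 (0.59), and PMEPA1 was never called (0.06 to 0.44). With at least 10 counts in every library the fold threshold called 1691 features higher and 2148 lower, against 3147 and 3315. Limma on log2(FPKM + 1) called 3676 features higher by the adjusted p, 579 higher and 690 lower by the fold threshold, and 26 pathway genes higher against 41. With log2(FPKM + 0.1) these were 3623, 1476 higher by the fold threshold and 26, and with log2(FPKM + 1) and no filter 579 and 691 by the fold threshold and 24 pathway genes. A pseudocount of 1 shrinks the fold changes of low genes by its construction. Leaving out 1 library gave 5 to 15 falling pathway genes in place of 16, with 5 without control 1 or control 3, 9 without control 2, 6 without Sev 1 and 7 without Sev 3, where fewer samples were tested. The log2 fold change of TGFBR1 turned to 0.083 without Sev 2 and 0.07 without Sev 3, and was -0.47 without Sev 1. That of BMPR2 turned from 0.01 to -0.14 with library size only, -0.006 without a count filter, -0.001 and -0.006 without control 1 and control 3, -0.069 without Sev 2, where the left-out libraries spanned -0.069 to 0.067, and -0.13, -0.14 and -0.13 in the 3 fits on FPKM, and the cause was not tested. The groups share replicate numbers, and deviations of libraries with the same number correlated at -0.007, 0.004 and 0.027. No shared deviation was thus seen, but with 3 libraries a group this cannot show whether the numbers pair the samples. With the number as a replicate block 8 members and 36 pathway genes were called higher and 6 pathway genes lower, against 5228 and 5021 features in all. Depth limits the genes of few counts, such as LEFTY1, DAND5 and the nearest neighbours of SMAD7 and NOG, and 3 libraries a group limit the rest.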
